A study of Mus musculus with 6 samples.

Results

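The DNA replication machinery was examined as a list of 35 named genes: the MCM helicase, the replicative polymerases, primase, the sliding clamp and its loader, replication protein A, the enzymes of Okazaki fragment processing and a mitochondrial single-strand binding protein. The genes were taken by name, but the list was chosen with earlier results of these data known. All 35 had a probe on the array, and 34 of them entered a comparison over 21420 features. The exception was Mcm5, whose single probe was marked as an outlier spot on 1 array. The RNA came from embryoid bodies, aggregates in which mouse embryonic stem cells differentiate. The cells were grown without LIF for 10 days, 2 in hanging drops and 8 in suspension. All lines had a mixed 129/C57BL6 background. The WT line was wild type, and the TKO_26 and TKO_29 lines were independent Tet1/2/3 triple knockouts, lacking the enzymes that oxidise 5-methylcytosine. Each line was hybridised to 2 arrays, 6 in all, which the series design describes as technical replicas. Except in a fit on line averages, the p-values here measure the spread between arrays of a line and compare lines, not genotypes. The fit on line averages takes its spread from the difference between the 2 TKO lines and assumes that WT varies alike. The WT genotype was represented by 1 line.

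DNA replication starts when the MCM helicase, loaded on origins as a ring, unwinds the double helix. DNA polymerase alpha and primase lay down short RNA-DNA primers, the clamp loader places PCNA on them, and polymerases epsilon and delta extend the leading and lagging strands. Replication protein A covers the exposed single strand, and nucleases and DNA ligase I trim and join the lagging-strand fragments. Genes of this machinery are well-known targets of E2F factors and are expressed in dividing cells, which embryoid bodies hold in many lineages.

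Levels are log2 processed signals relative to the array's own 75th percentile, so 0 is that percentile over the probes above background on all arrays. They compare arrays for 1 probe and do not compare genes. The 75th percentile itself ranged from a signal of 5256 on WT replicate 1 to 24163 on TKO_29 replicate 1, and 38.4% to 55.8% of the spots on an array were well above background. TKO_26 replicate 1 had the highest spread between repeated probes, with a median coefficient of variation of 14.2% against 4.32% to 5.61% on the others. All arrays were on 1 slide with WT in one column and TKO in the other, and these cannot be told apart from genotype. As a check of the labels, the brighter Tet1 probe was lower by 1.02 in TKO_26 and 1.69 in TKO_29, on the log2 scale, while the dimmer one differed by -0.08 and 0.23. Both Tet2 probes were lower in both lines, the brighter by 1.09 and 1.90. Of the 3 Tet3 probes, 2 were lower in both lines and 1 was higher in TKO_26 by 1.05. No label or file says whether a Tet probe falls within the deleted sequence, so these values are a limited check.

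Prim2, the large subunit of primase, was 20.5-fold higher in TKO_26 and 22.3-fold higher in TKO_29, while its catalytic partner Prim1 did not pass the test in either line. Prim2 was the only gene of the 34 that was at least 2-fold higher in both lines at an adjusted p below 0.05 (limma, Benjamini-Hochberg over all features). The background was 4.05%: 867 of the 21420 features passed the same rule upwards. No replication gene was 2-fold lower in both lines, against 6.59% of all features, and 0 passed downwards at an unadjusted p below 0.05 in both lines, against 15.5% of all. Without the fold minimum 7 of 34 genes (20.6%) were higher in both lines, against 8.57% of all features: Prim2, Pold1, Pold2, Rfc1, Rpa2, Dna2 and Rnaseh2a. Again none was lower, against 10.8%. At an unadjusted p below 0.05 in both lines 9 were higher, against 14.3%, the 7 with Rnaseh1 and Rnaseh2b. All 34 genes were well above background on all 6 arrays, as were 15361 features. With only those features fitted, 9 of the 34 genes were higher in both lines at an adjusted p below 0.05, against 10.4% of the features. By the 2-fold rule in that fit 1 gene was higher, against 449 of the 15361 features, and 0 were lower, against 734. The downward shares over all 21420 features include features bright only in WT. Below, "rose" means higher at an adjusted p below 0.05 in both lines, with no fold minimum, as for 8.57% of all features. The single complexes hold too few genes for their counts to be set against this share. The set of 7 depended on single arrays: with either WT array dropped, 1 gene (Prim2) passed, and the share of all features fell too, to 3.95% without WT replicate 1 and 5.81% without WT replicate 2. Dropping TKO_26 replicate 1 gave 2 (Pole and Prim2), against 5.27% of all features. Dropping TKO_26 replicate 2 gave 4 (Dna2, Pold2, Prim2 and Rnaseh2a), against 6.18%, and dropping TKO_29 replicate 2 the same 4, against 3.43%. With no filter on dim probes Prim2 alone passed, against 1.05% of all features.

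Within each line, 2 genes of the 34 passed the 2-fold rule upwards in TKO_26 (Pold1 and Prim2), where the share over all features was 5.6%. In TKO_29 there were 5 (Dna2, Pola2, Pold2, Prim2 and Rnaseh2a), where the share was 8.14%. None passed it downwards, against 7.79% and 11.2% of all features. With no fold minimum the counts were 7 in TKO_26, against 11.1%, and 11 in TKO_29, against 16.1%; none was lower, against 12.3% and 19.8%. The 11 were the 7 above with Pola2, Pole2, Rfc3 and Rnaseh1. All 4 TKO arrays lay above both WT arrays for 15 of 34 genes (44.1%), against 24.9% of all features, and below both for none, against 25.5%. The median difference over the 34 genes was 0.33 in TKO_26 and 0.06 in TKO_29, beside 0.02 and -0.09 over all features. In the 21 genes with no saturated spot it was 0.36 and 0.34. With only unsaturated probes used, the medians were 0.39 and 0.47 over 22 genes of the list and 0.04 and -0.01 over 19747 features. Both comparisons use the same WT arrays and are not independent of each other.

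**Figure D1:**
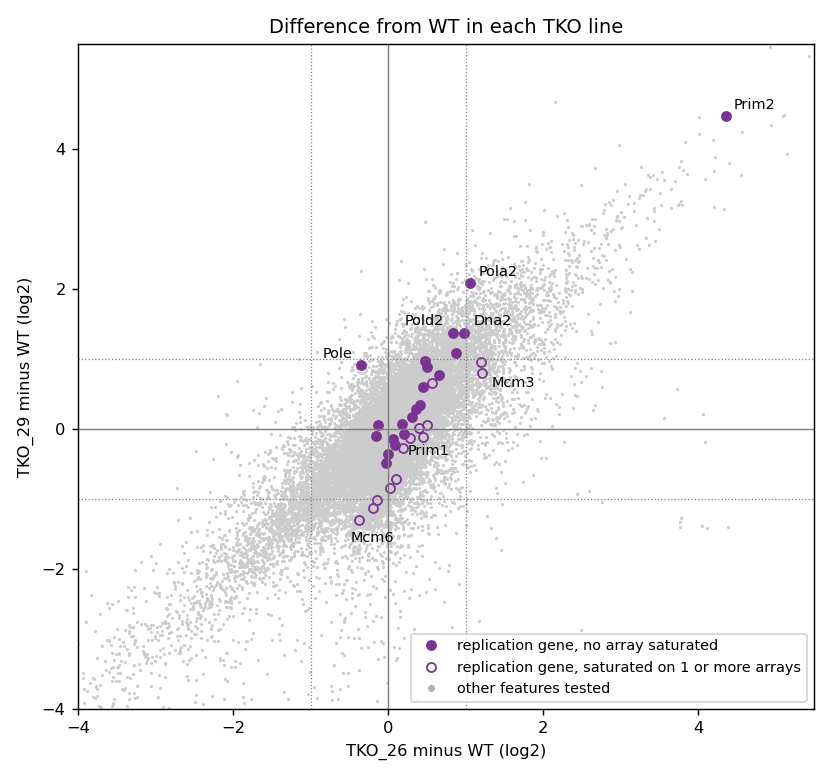
Each point is a feature, placed by its log2 difference from WT in TKO_26 (horizontal) and in TKO_29 (vertical), with the dotted lines at 2-fold; purple marks replication genes, open where a spot was saturated, and features beyond the axes are not drawn. Prim2 lies at 4.36 and 4.48, apart from the other replication genes, whose next highest mean over the lines is 1.58 (Pola2).

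Markers of differentiated cell types differed between the same samples. Of 8 cardiac markers, all 8 were 2-fold lower in both TKO lines, and the summed linear level of the 7 without saturation ranged from 17.3 to 18.6 on WT arrays and from 1.56 to 1.77 on TKO arrays. All 6 tested blood markers were lower, with a sum of 9.11 to 9.85 in WT and 0.0449 to 0.0523 in TKO, and 3 of them were not above background in either TKO line. Lower calls were also made for 6 of 8 endothelial, 6 of 8 endoderm, 5 of 8 mesenchyme and 1 of 6 tested neural markers. The mesenchyme marker Thy1 went the other way and rose. Of 10 pluripotency markers 3 were 2-fold higher, Nanog, Sox2 and Dppa3, and 3 others (Esrrb, Utf1 and Dppa5a) had saturated spots, Dppa5a on all 6 arrays. Klf4 and Tdgf1 rose without reaching 2-fold in both lines. Pou5f1 differed by 0.22 in TKO_26 and 0.60 in TKO_29 (limma adjusted p = 0.336 and 0.0322). Zfp42 was lower, with differences of -0.98 and -0.93 (limma adjusted p = 0.0548 and 0.0467). The summed level of the 7 unsaturated pluripotency markers was 2.68 to 2.99 in WT and 4.27 to 4.62 in TKO, with every TKO array above WT. The part of these cell types in the replication values was not tested. In such bulk RNA, a change in the number of dividing cells and a change of RNA per cell cannot be told apart.

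To show sequence that the genes may have in common, the 250 bases before the RefSeq start were read for 35 promoters of 29 of the 35 genes (RefSeq, GRCm38.p6); Prim2, Mcm4, Pole, Rfc2, Rnaseh1 and Rnaseh2b had none there. The letters TTTCCCGC, TTTGGCGC, TTTCGCGC or TTTGCCGC, typical of E2F sites, were searched on both strands, counting overlapping matches. They were found in 7 of the 35 promoters (20%), against 1.86% of 32851 promoters of the same length. The 7 belonged to Mcm5, Mcm6, Mcm7, Pola1, Rfc3 and Pole4, the last with 2 overlapping promoters. Of the 6 genes that rose and had a promoter 0 held a match, and of the 22 tested genes that did not rise 5 did; the difference was not tested. The CCAAT letters of NF-Y were in 48.6% of the gene promoters and 33.8% of all, and the GGGCGG letters of Sp1 in 62.9% and 32.7%. The median promoter held 18 CpG dinucleotides against 6 over all promoters. A match is a description of the letters and not a site known to be bound. The promoters of 5 genes are shown to set letters with and without E2F matches side by side: Mcm6 and Rfc3 hold matches, Pold1, Rpa2 and Prim1 hold none. Each runs 5′ to 3′ on the gene's strand, with the E2F letters in capitals.
Mcm6, chr1:128359706-128359955, minus strand: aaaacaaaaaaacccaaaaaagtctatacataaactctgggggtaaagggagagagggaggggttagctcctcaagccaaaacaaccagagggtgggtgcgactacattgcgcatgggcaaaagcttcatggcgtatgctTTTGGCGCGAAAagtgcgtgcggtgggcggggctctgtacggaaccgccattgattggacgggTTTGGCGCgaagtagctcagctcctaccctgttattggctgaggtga
Rfc3, chr5:151651209-151651458, minus strand: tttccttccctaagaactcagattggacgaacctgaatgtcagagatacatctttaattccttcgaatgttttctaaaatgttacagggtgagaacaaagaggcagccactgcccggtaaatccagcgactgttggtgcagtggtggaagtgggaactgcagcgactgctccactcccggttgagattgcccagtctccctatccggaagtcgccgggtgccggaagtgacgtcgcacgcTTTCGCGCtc
Pold1, chr7:44548816-44549065, minus strand: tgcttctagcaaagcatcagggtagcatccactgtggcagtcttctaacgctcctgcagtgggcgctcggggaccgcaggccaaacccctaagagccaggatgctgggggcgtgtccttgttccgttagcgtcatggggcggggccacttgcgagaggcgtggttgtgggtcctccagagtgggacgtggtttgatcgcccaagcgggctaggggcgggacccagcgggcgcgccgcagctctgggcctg
Rpa2, chr4:132768110-132768359, plus strand: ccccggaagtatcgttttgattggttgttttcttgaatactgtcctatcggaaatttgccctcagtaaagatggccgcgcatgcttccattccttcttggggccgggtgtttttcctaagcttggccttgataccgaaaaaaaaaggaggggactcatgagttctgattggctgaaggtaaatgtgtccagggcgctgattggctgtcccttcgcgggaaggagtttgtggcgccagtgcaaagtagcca
Prim1, chr10:128014965-128015214, plus strand: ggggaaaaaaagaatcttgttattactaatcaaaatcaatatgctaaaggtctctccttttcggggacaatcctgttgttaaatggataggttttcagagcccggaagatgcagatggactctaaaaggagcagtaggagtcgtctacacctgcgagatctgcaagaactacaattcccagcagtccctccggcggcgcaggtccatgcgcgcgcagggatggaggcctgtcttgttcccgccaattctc
In the Mcm6 promoter the first stretch of capitals is a pair of overlapping matches on opposite strands, and its 3 matches end 102, 98 and 39 bases before the start. The single Rfc3 match ends 2 bases before the start.

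DNA polymerase alpha and primase form a complex of 4 proteins: Pola1, the catalytic polymerase, Pola2, its regulatory subunit, Prim1, the catalytic primase, and Prim2, which binds the primer and the template. Prim2 had log2 levels of -6.23 and -6.55 on the WT arrays, -2.03 and -2.04 on the TKO_26 arrays and -1.84 and -1.99 on the TKO_29 arrays. The WT arrays lay far below all 4 TKO arrays, and the arrays within each line were close together. In processed signal this was 70.0 and 94.7 in WT, 1602 and 2742 in TKO_26, and 6746 and 3063 in TKO_29, before scaling. The difference was 4.36 ± 0.16 (SE) in TKO_26, or 20.5-fold (limma adjusted p = 0.000500), and 4.48 ± 0.16 in TKO_29, or 22.3-fold (adjusted p = 0.000495). WT Prim2 was well above background on both arrays, where the lowest such level was -6.93 and -8.18. Over 19 settings of the analysis the Prim2 difference ranged from 3.50 to 4.52 in TKO_26 and from 3.61 to 4.64 in TKO_29, and it passed the test in all 19. It rests on a single probe. By the mean over the lines Prim2 was 10th in rank among all 21420 features.

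Prim1 did not share this difference. Its levels were 0.72 and 0.76 in WT, 0.90 and 0.98 in TKO_26, and 0.73 and 0.60 in TKO_29. The TKO_26 arrays were slightly above WT and the TKO_29 arrays overlapped with WT or lay below it. The differences were 0.21 ± 0.12 (adjusted p = 0.280) and -0.07 ± 0.12 (adjusted p = 0.664). Pola1 had -1.08 and -1.25 in WT, -1.16 and -1.20 in TKO_26 and -1.56 and -1.50 in TKO_29. TKO_26 overlapped WT, and TKO_29 was below it by 0.36 ± 0.12 (adjusted p = 0.0769). Pola2 had -5.39 and -4.71 in WT, -3.63 and -4.34 in TKO_26 and -3.35 and -2.57 in TKO_29. All TKO arrays were above both WT arrays, but the arrays of each line lay far apart. The Pola2 difference was 2.09 ± 0.42 in TKO_29 (4.26-fold, adjusted p = 0.0194) and 1.06 ± 0.42 in TKO_26 (adjusted p = 0.137).

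The genes beside Prim2 on chromosome 1 (order from the RefSeq GRCm38.p6 table) did not rise in either line. The 3 nearest tested genes on one side, Adgrb3, Phf3 and Ptp4a1, and Rab23 and Bag2 on the other, did not pass in either line. The adjacent 1700001G17Rik was lower in both lines, by 1.14 in TKO_26 (adjusted p = 0.0344) and 1.13 in TKO_29 (adjusted p = 0.0259). Adgrb3 had differences of 0.72 (adjusted p = 0.585) and 1.41 (adjusted p = 0.228).

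**Figure D2:**
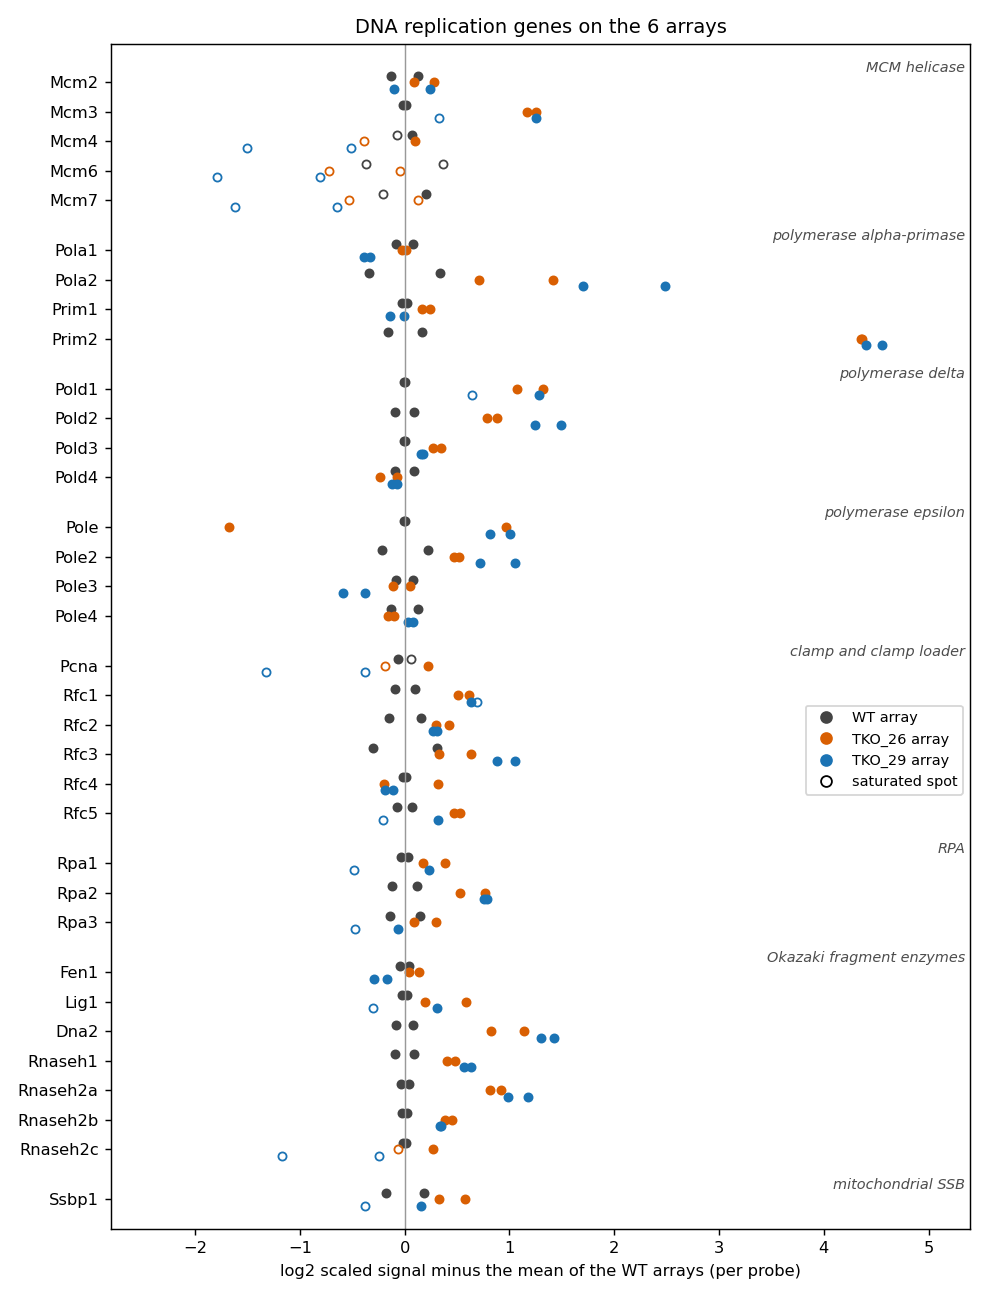
Each point is 1 array, placed by its log2 scaled signal minus the mean of the WT arrays for the same probe; genes are grouped by role and open circles are saturated spots. The Prim2 TKO points lie above 4, while the other genes lie nearer to WT, and the TKO_29 open circles of Mcm4, Mcm6, Mcm7, Pcna and Rnaseh2c lie below WT at the top of the scanner's range.

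Polymerase delta extends the lagging strand, and 2 of its 4 subunit genes rose. Pold1, the catalytic subunit, had 1.03 and 1.03 in WT, 2.35 and 2.11 in TKO_26, and 1.67 and 2.31 in TKO_29. All TKO arrays were above WT, and the lower TKO_29 value was a saturated spot. The differences were 1.20 ± 0.24 (2.29-fold, adjusted p = 0.0280) and 0.96 ± 0.24 (1.95-fold, adjusted p = 0.0367), the second 1.28 from replicate 2 alone. For Pold1 the test was passed in 12 of 18 settings in TKO_26 and in 11 of 18 in TKO_29. With the replicate number as a block the limma adjusted p was 0.0591 in TKO_26 and 0.0661 in TKO_29. Pold2, a structural subunit, had -2.03 and -1.85 in WT, -1.06 and -1.16 in TKO_26, and -0.69 and -0.45 in TKO_29. The 3 lines did not overlap. Its differences were 0.83 ± 0.15 (adjusted p = 0.0197) and 1.37 ± 0.15 (adjusted p = 0.00411). Pold3 had differences of 0.31 and 0.16 (adjusted p = 0.115 and 0.290) and Pold4 -0.15 and -0.10 (adjusted p = 0.468 and 0.579).

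Of the polymerase epsilon genes 0 of 4 rose. Pole, the catalytic subunit of the leading-strand polymerase, had 0.11 and 0.10 in WT, -1.56 and 1.07 in TKO_26, and 1.11 and 0.93 in TKO_29. TKO_26 replicate 1 was the only TKO array below WT, and the other 3 were above it. The TKO_26 difference was -0.35 ± 0.85 (adjusted p = 0.795) with both arrays and 0.97 without TKO_26 replicate 1. The TKO_29 difference was 0.91 ± 0.85 (adjusted p = 0.430). Pole2, its second subunit, was above WT on all TKO arrays, with differences of 0.50 (adjusted p = 0.154) and 0.89 (adjusted p = 0.0291). The histone-fold subunits Pole3 and Pole4 had differences of -0.03 and -0.48, and of -0.13 and 0.06, and passed in neither line.

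Of the 5 tested MCM ring genes 0 rose, and 4 had saturated spots. Mcm2 had 0.67 and 0.41 in WT, 0.82 and 0.63 in TKO_26, and 0.44 and 0.79 in TKO_29. The groups overlapped and the differences were 0.18 ± 0.19 (adjusted p = 0.534) and 0.07 ± 0.19 (adjusted p = 0.782). Mcm3 had 1.05 and 1.07 in WT, 2.23 and 2.31 in TKO_26, and 1.39 and 2.31 in TKO_29, the 1.39 being a saturated spot. All TKO arrays were above WT, with differences of 1.21 ± 0.32 (adjusted p = 0.0530) and 0.79 ± 0.32 (adjusted p = 0.105). From TKO_29 replicate 2 alone the difference was 1.25. Mcm5, which was not tested, had 1.24 on WT replicate 2 and 1.11 on the outlier spot of WT replicate 1. Its TKO levels were 2.59 and 2.23 in TKO_26 and 1.67 and 2.61 in TKO_29, and both TKO_29 spots were saturated. Mcm6 was saturated on all 6 arrays, at signals of 52546 to 57974, so no difference was measured. Mcm4 and Mcm7 were saturated on both TKO_29 arrays, on WT replicate 2 and on at least 1 TKO_26 array. Their TKO_29 levels are therefore lower bounds, and no fold is given.

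Saturated spots were more frequent in this list than over all features. Of the 34 tested genes 13 (38.2%) were saturated on at least 1 array, against 9.73% of all features. TKO_29 replicate 1 had all 13, TKO_26 replicate 2 and TKO_29 replicate 2 had 5 each, WT replicate 2 had 4, TKO_26 replicate 1 had 2 and WT replicate 1 had 1. Scaling moved the scanner's upper limit to different levels, since the same limiting signal was divided by a larger 75th percentile on brighter arrays. The saturated replication genes lay between 1.20 and 1.77 on TKO_29 replicate 1 but at 3.42 on WT replicate 1. With saturated spots left out, an alternative added after the data were seen, 29 genes of the list could be tested. Of these, 3 were 2-fold higher in both lines instead of 1 (Prim2, Pold1 and Mcm3), against 916 of 20163 features.

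**Figure D3:**
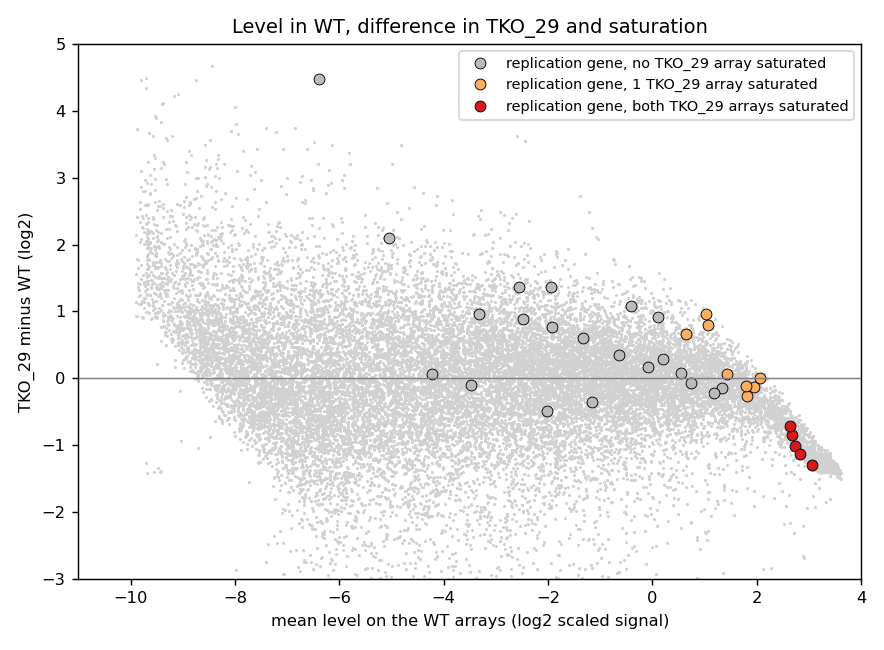
Each point is a feature, with its mean log2 level on the WT arrays (horizontal) against its TKO_29 minus WT difference (vertical); replication genes are coloured by how many TKO_29 arrays were saturated. The 5 genes saturated on both TKO_29 arrays lie on the falling edge at the right, with differences of -0.71 to -1.30, and the unsaturated genes lie to the left of it.

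The sliding clamp Pcna was among the saturated genes. It had 2.62 and 2.74 in WT, 2.91 and 2.50 in TKO_26 and 1.36 and 2.30 in TKO_29, with WT replicate 2, TKO_26 replicate 2 and both TKO_29 spots saturated. With saturated spots in every line, no fold is given for Pcna. Of the 5 clamp loader genes, Rfc1, its largest subunit, rose. It had 0.54 and 0.73 in WT, 1.15 and 1.25 in TKO_26, and 1.33 and 1.27 in TKO_29. The groups did not overlap, although the 1.33 was a saturated spot. The differences were 0.56 ± 0.13 (adjusted p = 0.0391) and 0.66 ± 0.13 (adjusted p = 0.0188). In TKO_26 the test was passed in 6 of 18 settings, and the adjusted p was 0.0773 with normexp, 0.218 after quantile normalisation, 0.231 in the authors' matrix, 0.0534 with saturated spots left out, and 0.0894 without either TKO_29 array. Rfc3 differed by 0.48 in TKO_26 (adjusted p = 0.236) and 0.97 in TKO_29 (adjusted p = 0.0383). Rfc2 and Rfc5 did not pass in either line, with differences of 0.36 and 0.29 for Rfc2 and 0.50 and 0.06 for Rfc5. Rfc5 was saturated on TKO_29 replicate 1, and from replicate 2 alone its TKO_29 difference was 0.32. Rfc4 did not pass with its brighter probe (0.06 and -0.15), while its dimmer probe differed by 0.59 (adjusted p = 0.197) and 1.12 (adjusted p = 0.0340, every probe fitted on its own).

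Of the 3 subunits of replication protein A, Rpa2 rose and Rpa1 and Rpa3 did not pass. Rpa2, the subunit phosphorylated during replication stress, had -2.04 and -1.80 in WT, -1.15 and -1.39 in TKO_26, and -1.16 and -1.14 in TKO_29. Both TKO lines were above WT. The differences were 0.65 ± 0.15 (adjusted p = 0.0403) and 0.77 ± 0.15 (adjusted p = 0.0192). In TKO_26 the test was passed in 10 of 19 settings, and with normexp the difference was 0.40 (adjusted p = 0.177). Rpa1 had 0.28 and -0.13 and Rpa3 had 0.19 and -0.27 as differences. Both were saturated on TKO_29 replicate 1 only.

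Among the 7 enzymes that process RNA primers and Okazaki fragments, 2 rose. Dna2, a nuclease and helicase that trims long flaps, had -2.64 and -2.48 in WT, -1.41 and -1.73 in TKO_26, and -1.25 and -1.13 in TKO_29. All TKO arrays were above WT. Its differences were 0.98 ± 0.16 (adjusted p = 0.0164) and 1.37 ± 0.16 (adjusted p = 0.00521). Rnaseh2a, the catalytic subunit of RNase H2, had -0.45 and -0.37 in WT, 0.51 and 0.40 in TKO_26, and 0.57 and 0.76 in TKO_29. The differences were 0.87 ± 0.13 (adjusted p = 0.0126) and 1.08 ± 0.13 (adjusted p = 0.00548). All 4 tested Rnaseh2a probes were higher in both lines, by 0.53 to 0.87 in TKO_26 and by 0.40 to 1.08 in TKO_29. The other RNase H2 subunit genes did not pass: Rnaseh2b differed by 0.42 (adjusted p = 0.0572) and 0.34 (adjusted p = 0.0690), and Rnaseh2c had both TKO_29 spots saturated. Rnaseh1 differed by 0.44 (adjusted p = 0.0665) and 0.60 (adjusted p = 0.0226). The flap endonuclease Fen1 differed by 0.09 and -0.23, and DNA ligase Lig1 by 0.39 and 0.01, with TKO_29 replicate 1 saturated for Lig1.

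Ssbp1, the mitochondrial single-strand binding protein, did not pass with its brightest probe (0.45 and -0.11), which was saturated on TKO_29 replicate 1. Its 2 dimmer, unsaturated probes differed by 0.63 and 0.58, and by 0.80 and 1.25. The last was past the threshold in both lines (adjusted p = 0.0494 and 0.0113, every probe fitted on its own).

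**Figure D4:**
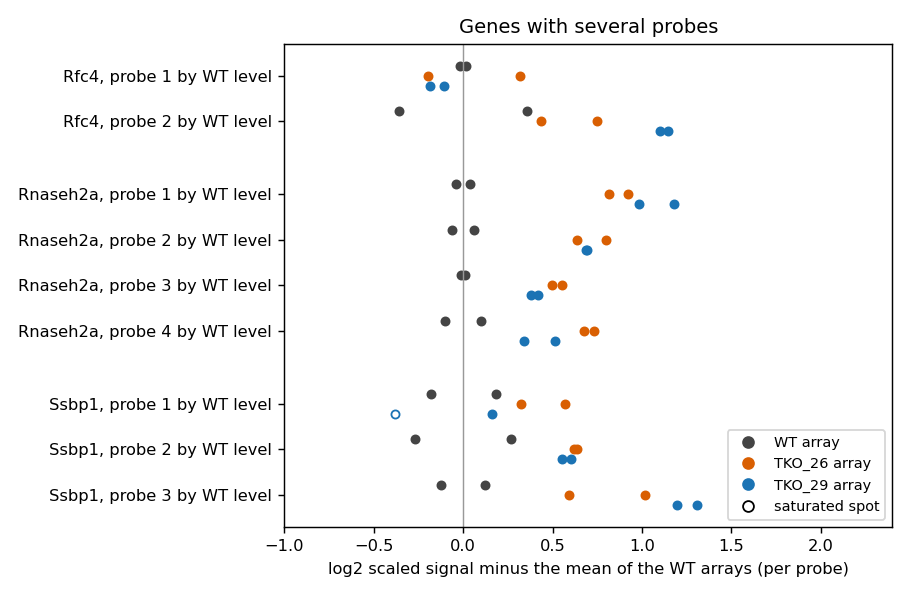
Each point is 1 array of 1 probe, as log2 scaled signal minus the mean of the WT arrays for that probe, for the 3 genes with several tested probes, numbered by their WT level. The 4 Rnaseh2a probes are all higher in TKO, whereas the brighter and dimmer probes of Rfc4 and of Ssbp1 give different sizes, with the saturated Ssbp1 spot below WT.

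The TKO lines were also compared with each other and, taken as 2 samples against 1, with WT. No replication gene, and no feature of the 21420, differed between TKO_29 and TKO_26 by the 2-fold rule (0%; limma). At an unadjusted p below 0.05, 1 gene was higher in TKO_29 (Pold2), against 8.7% of all features, and 2 were lower (Pola1 and Pole3), against 13.7%. With each line counted as 1 sample, Prim2 was the only replication gene called higher, at a mean of 4.42 (21.4-fold, adjusted p = 0.0466), against 0.154% of all features. This fit has 1 residual degree of freedom. The call was lost without TKO_26 replicate 2, without TKO_29 replicate 2, after quantile normalisation, with only probes above background on all arrays and with no filter on dim probes. None was called lower, against 0.752%. At an unadjusted p below 0.05 there were 7 higher and 0 lower, against 8.26% and 9.69%.

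Related genes were described in 7 lists of 101 genes, of which 97 were tested. In these lists 1 gene was 2-fold higher in both lines and 0 were lower, and with no fold minimum 12 were higher and 3 lower, against shares of 8.57% and 10.8% over all features. The median of the line mean was 0.24, beside 0.22 for the replication genes and -0.04 for all features. The exception was Primpol, a primase-polymerase that restarts stalled forks, which had -5.01 and -5.24 in WT, -3.83 and -4.18 in TKO_26, and -4.07 and -3.98 in TKO_29. All TKO arrays were above WT, with a mean difference of 1.11 over the lines (2.16-fold, limma adjusted p = 0.0139 in TKO_26 and 0.0109 in TKO_29).

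Of 21 tested genes of origin licensing and firing 4 rose, Orc1, Gins4, Dbf4 and Ticrr, with a list median of 0.56 for the mean over the lines. Orc1, a subunit of the origin recognition complex, differed by 0.74 (adjusted p = 0.0168) and 1.56 (adjusted p = 0.00202). Cdc45, which joins the helicase at firing, had the largest mean difference of the list, but TKO_26 did not pass (1.35, adjusted p = 0.106) while TKO_29 did (2.13, adjusted p = 0.0260). Of 16 genes of fork protection and chromatin, Wdhd1, Hells and Top2a rose. Of 11 genes of nucleotide supply Dut, which removes dUTP, rose by 1.02 and 0.93 (adjusted p = 0.00805 and 0.00799). Of 14 genes that mark cell cycle phase 0 passed in both lines, with Kif11, a mitotic motor, differing most (0.61, adjusted p = 0.0639, and 1.42, adjusted p = 0.00548). Of these 14 genes 7 were saturated on at least 1 array, which limits what the 0 shows. The E2F and RB list had 0 of 13 higher and 2 lower, E2f6 (-0.59 and -0.61) and E2f8 (-0.62 and -0.85), both E2F family repressors. Besides Primpol, the translesion and repair polymerase genes Poli and Poll rose, and of 9 tested mitochondrial replication genes Polg2 rose. By the same naming rule, the largest mean differences of the other lists without a 2-fold call were those of Hells, Dctd, Tfdp1 and Tfam. Hells, a chromatin remodeller, differed by 0.70 (adjusted p = 0.0333) in TKO_26 and 1.45 (adjusted p = 0.00382) in TKO_29. Dctd, which deaminates dCMP, differed by 1.59 (adjusted p = 0.0507) in TKO_26 and 2.22 (adjusted p = 0.0157) in TKO_29. Tfdp1, the dimer partner of E2F factors, differed by -0.03 (adjusted p = 0.966) in TKO_26 and 1.57 (adjusted p = 0.0505) in TKO_29. Tfam, which packs mitochondrial DNA, differed by 0.33 (adjusted p = 0.389) in TKO_26 and 1.07 (adjusted p = 0.0279) in TKO_29. The other genes named here by the rule without fold minimum were chosen after their values were seen.

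**Figure D5:**
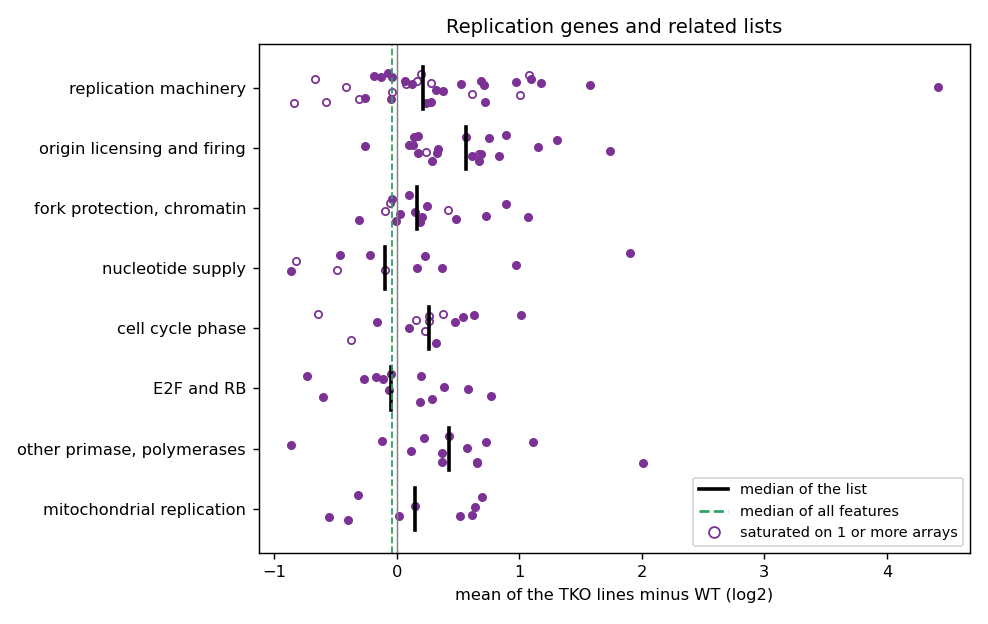
Each point is a gene, placed by the mean of its TKO line differences from WT (log2), in the replication list and the 7 related lists; black bars are list medians and the green dashed line is the median of all features at -0.04. Prim2 is the point at 4.42, and the list medians lie between -0.09 and 0.56.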

How the data were processed

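Per the labels, Cy3-labelled cRNA of embryoid bodies was run on Agilent arrays in a single colour. The deposited scanner files hold spot intensity values made by Feature Extraction 10.5.1.1, per the file headers. Their processed signal was used, with the deposited flags for saturation, background and outlier spots. A table of the authors' log2 values, whose making no source used here states, served as an alternative. Its columns correlated at 0.995 to 1.00 with their own arrays. That of TKO_29 replicate 1 correlated slightly better with another array (0.9963) than with its own (0.9962), which limits the TKO_29 values from it.

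Control spots and feature outliers (263 of 55681 probes) were left out, and saturated spots were kept. From each log2 signal the 75th percentile of its array was subtracted, taken over probes above background everywhere. A probe was tested where both arrays of some line had it well above background. Probes were named by accession through the RefSeq GRCm38.p6 table (27509 of 55681), and the brightest probe stood for a gene. The number of arrays limits the precision. limma 3.58.1 (R 4.3.3) fitted the arrays by line (3 residual degrees of freedom). Calls needed an adjusted p below 0.05 and, where stated, a 2-fold difference. A fit on line averages used 1 WT and 2 TKO samples. The fitting was tested on simulated data. Replicate numbers were not used as pairs.

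The genes named are the 35 of the list, the related-list genes called in both lines or, where none was, the largest mean difference, the 3 nearest tested genes on each side of a called gene, and the Tet genes. The genes and lists were chosen with earlier results of these data known. The normexp alternative was planned on the mean signal and used the median signal, the column in the files used here. Alternatives covered background, scaling, filters, probe choice, fold minimum, single arrays and a block. A result on 1 gene of the related lists is not reported here.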

Additional observations from a re-analysis of the deposited data

How the results depend on the processing

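Of the single-gene differences under the alternatives, 1028 kept their direction and side of the threshold, 76 lost it and 37 gained it. Another 49 changed sign; none of these passed the threshold as reported, and 2 passed it after the change, Pole in TKO_26 without TKO_26 replicate 1 (0.97) and Ssbp1 in TKO_29 with its brightest unsaturated probe (1.25). In several alternatives the direction could not change. A variance trend and the replicate number as a block keep each difference as it was, as does dropping an array of the other TKO line. The 1028 therefore overstate how far direction was tested. With normexp the differences that changed sign were Pola1 0.066 in TKO_26, and Pole4 -0.058 in TKO_29. With the all-probe percentile the changed differences were Pola1 0.074 and Pole3 0.055 in TKO_26. After quantile normalisation the changed differences were Pola1 0.0090, Pole3 0.047 and Rfc4 -0.0013 in TKO_26, and Rpa1 0.47, Rpa3 0.10, Rnaseh2c 0.22 and Ssbp1 0.40 in TKO_29. In the authors' matrix the changed differences were Mcm4 0.032, Mcm7 0.039 and Pola1 0.11 in TKO_26, and Prim1 0.0059, Pold4 0.028, Pcna 0.056, Rfc4 0.0064, Rpa1 0.45, Rpa3 0.28, Rnaseh2c 0.15 and Ssbp1 0.43 in TKO_29. With the brightest unsaturated probe it was Ssbp1 1.25 in TKO_29. With the mean of a gene's probes the changed differences were Rfc4 0.49 and Ssbp1 0.57 in TKO_29. With saturated spots left out the changed differences were Rpa1 0.23 and Ssbp1 0.16 in TKO_29. Leaving out 1 array at a time changed the sign in TKO_26 of Mcm4 (-0.39 to 0.10), Mcm7 (-0.53 to 0.13), Pcna (-0.19 to 0.23), Pola1 (-0.094 to 0.074), Pole3 (-0.11 to 0.054), Pole (-1.67 to 0.97), Rfc4 (-0.20 to 0.32) and Rnaseh2c (-0.066 to 0.27). Leaving out 1 array at a time changed the sign in TKO_29 of Lig1 (-0.30 to 0.31), Mcm2 (-0.10 to 0.25), Pole4 (-0.068 to 0.18), Rfc5 (-0.21 to 0.32), Rpa1 (-0.48 to 0.23) and Ssbp1 (-0.38 to 0.16).

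Genes 2-fold higher in both lines numbered 3 with the 75th percentile over all probes (Prim2, Dna2, Pold1), against 1058 of 21420 features. In the main fit 1 gene and 867 features passed. There were 3 after quantile normalisation (Prim2, Dna2, Mcm3), against 831 features, and 2 in the authors' matrix (Prim2, Dna2), against 616. With saturated spots left out, which was added after the data were seen, 3 of 29 genes passed (Prim2, Mcm3, Pold1), against 916 of 20163 features. In TKO_26 the count was 4 with the all-probe percentile, 1 with no filter and 1 with the brightest unsaturated probe. With no fold minimum the TKO_26 count was 7, against 11.1% of all features. In TKO_29 the count was 8 after quantile normalisation, 8 in the matrix and 11 with no fold minimum, the last against 16.1% of all features. On line averages it was 0 after quantile normalisation, 0 with the filter on all arrays, 0 with no filter, 2 with a variance trend and 3 in the matrix. The other single-line counts and these line-average counts are given without a share of all features, so they do not set the list apart. The 7 genes that passed in both lines with no fold minimum numbered 1 with no filter, while the share of all features fell from 8.57% to 1.05%. The arrays share only a number between lines: the deviations of same-numbered arrays correlated at 0.39 between WT and TKO_26 but at -0.36 and -0.44 between these lines and TKO_29. With the replicate number as a block the 7 numbered 4 (Dna2, Pold2, Prim2, Rnaseh2a), while the share of all features fell to 5.38%. The TKO_26 2-fold count with the block was 1.

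Leaving out 1 array at a time gave 1 to 3 genes higher in both lines, 1 to 6 with no fold minimum, 1 to 3 higher and 0 to 1 lower in TKO_26, 3 to 7 higher and 0 to 3 lower in TKO_29, 0 to 1 on line averages, and 0 to 1 higher in TKO_29 than TKO_26. The 1 lower in TKO_26 was Pole without TKO_26 replicate 2 (-1.67). The 3 lower in TKO_29, without TKO_29 replicate 2, were Mcm4, Pcna and Rnaseh2c, all saturated on the remaining array. In such fits the lone array is assumed to vary like the others. Shares over all features are not set beside these ranges, so the ranges do not set the list apart from other features. Normexp moved the median of all features in TKO_29 to -0.31, and no filter moved the medians to 0.30 and -0.62. The cause was not tested. Saturation limits the bright genes of the list.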
